A study of Mus musculus with 8 samples.

Results

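The genes described here are the mouse matrix proteases of the ADAMTS and MMP families and their TIMP inhibitors. They were chosen by symbol alone, as Adamts, Mmp or Timp followed by a number and at most 1 letter a or b, which took 46 of the 24460 genes in the count files. Of these, 19 were Adamts genes, 23 were Mmp genes and 4 were Timp genes. The families themselves were picked with earlier results of these data known. RNA-Seq had been performed on wild type mouse embryonic fibroblasts (MEFs) cultured with RHPS4, a ligand of G-quadruplexes (G4), the folded structures that guanine-rich DNA or RNA can form. The groups were 0 µM RHPS4 (3 libraries), 2 µM RHPS4 (3 libraries) and 10 µM RHPS4 (2 libraries), each library holding total RNA depleted of nuclear ribosomal RNA. The culture protocol names 2 exposure times, and the longer is the one given for other MEF assays at these doses, but neither is tied to the RNA libraries. Nothing says that the libraries of a group came from separate cultures, so p-values measure only the spread between these libraries.

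MMPs (matrix metalloproteinases) and ADAMTS proteins (a disintegrin and metalloproteinase with thrombospondin motifs) are zinc enzymes that cut collagens, proteoglycans and other proteins of the extracellular matrix. Most are secreted as inactive proenzymes, and some MMPs are anchored in the plasma membrane. TIMPs (tissue inhibitors of metalloproteinases) are small secreted proteins that bind and block the active site, and fibroblasts are a major source of both the enzymes and the inhibitors. Many secreted MMP genes lie side by side in 1 gene cluster and are classical targets of AP-1, a transcription factor made of Fos and Jun family proteins.

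The MMP cluster lay on mouse chromosome 9 (GRCm38, chr9:7272514-7699585) and held 10 of the 23 Mmp genes. Promoter sequences from RefSeq (GRCm38.p6, 250 bases before to 50 bases after each start site) matched 32 of the 46 genes. They were searched on both strands for the AP-1 site TGANTCA (its own reverse complement), for the TATA box TATAAA, and for a G4 motif of 4 runs of at least 3 G with loops of 1 to 7 bases. The AP-1 site stood in a promoter of 8 of the 32 genes (25.0%, against 8.97% of all genes in the table). All 8 were in the cluster, where 8 of 10 genes had it. Mmp7 and Mmp12 each had another promoter entry, at a different start site, that lacked it. None of the other 22 matched genes had the AP-1 site. In each of the 8 a TATAAA match followed the AP-1 site, with 12 to 41 bases between them. That match began 5 bases after the annotated start in Mmp12, and 7 and 16 bases before it in Mmp3 and Mmp13. In the other genes it began 26 to 58 bases before the start. The 70 bases from 8 bases before the AP-1 site are shown for these 8 genes, because they show what the cluster's promoters share, with the AP-1 site and the TATA box in capitals, 5′ to 3′ on each gene's own strand.
Mmp13 (collagenase, chr9:7272471-7272540, +): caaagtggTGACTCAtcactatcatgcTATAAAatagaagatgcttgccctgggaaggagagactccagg
Mmp12 (macrophage elastase, chr9:7347322-7347391, +): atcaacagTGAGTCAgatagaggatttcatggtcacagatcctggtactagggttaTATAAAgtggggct
Mmp1b (collagenase, chr9:7388058-7388127, -): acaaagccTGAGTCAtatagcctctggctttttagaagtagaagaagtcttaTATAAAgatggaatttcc
Mmp3 (stromelysin, chr9:7445768-7445837, +): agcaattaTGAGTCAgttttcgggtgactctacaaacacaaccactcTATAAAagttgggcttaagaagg
Mmp1a (collagenase, chr9:7464060-7464129, +): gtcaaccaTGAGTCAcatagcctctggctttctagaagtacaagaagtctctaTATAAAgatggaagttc
Mmp10 (stromelysin, chr9:7502271-7502340, +): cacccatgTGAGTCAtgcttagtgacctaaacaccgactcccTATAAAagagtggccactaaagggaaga
Mmp20 (enamelysin, chr9:7628128-7628197, +): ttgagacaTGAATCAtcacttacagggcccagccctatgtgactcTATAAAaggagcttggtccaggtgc
Mmp7 (matrilysin, chr9:7692019-7692088, +): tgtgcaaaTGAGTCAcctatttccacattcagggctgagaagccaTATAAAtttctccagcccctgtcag
Mmp1a and Mmp1b had long runs of the same bases around the site, and Mmp20 carried the variant TGAATCA. The remaining cluster genes, Mmp8 and Mmp27, had no AP-1 site in this window. Mmp8 had a TATAAA match on the opposite strand, 3 bases before its start. A match is a description of the letters and does not show that a factor was bound there.

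The G4 motif is of interest because RHPS4 binds G4. It stood in a promoter of 13 of the 32 genes (40.6%, against 20.4% of all genes in the table). These were Adamts2, Adamts3, Adamts9, Adamts12, Adamts13, Adamts14, Adamts18, Adamts20, Mmp11, Mmp23, Timp2, Timp3 and Timp4. The families thus differed, since all other matched Mmp genes lacked the motif, but only Adamts1 and Adamts17 of the matched Adamts genes did. Mmp23 had another promoter entry, at a different start site, that lacked it. Among the genes called below, Adamts9 was the only one with the motif, while Mmp3 and Mmp28 had none and Adamts6, Adamts7 and Mmp19 had no entry in the table. Its promoter is shown from 80 bases before to 20 bases after the start site, with the motif in capitals. The runs stand as C on the gene's strand and as G on the opposite strand.
Adamts9 (chr6:92943515-92943614, -): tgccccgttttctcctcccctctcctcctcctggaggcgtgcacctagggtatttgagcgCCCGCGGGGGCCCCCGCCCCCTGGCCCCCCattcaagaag
Whether these sequences fold into G4 in the cells was not tested.

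The libraries held between 10455965 and 26688121 counts, so that 3 counts corresponded to 0.287 CPM (the count scaled to the size of its library) in the smallest and 0.112 CPM in the largest, a floor that covers counting error only. The 46 genes took a small share of the counts, which ran from 0.243 to 0.246% at 0 µM, from 0.258 to 0.261% at 2 µM and from 0.284 to 0.288% at 10 µM. The share of counts from mtDNA moved the other way, from 13.2 to 14.4% at 0 µM to 5.33 to 6.32% at 10 µM, and its part in the members' share was not tested. Levels below are therefore CPM scaled by edgeR's trimmed mean of M-values (TMM), which centres the fold changes of most genes on 0. The summed level of 10 fibroblast markers was 8751.6 to 9575.2 CPM at 0 µM and 7888.9 to 8388.7 CPM at 10 µM. Vim and Col1a2 led this sum, with means of 3689 and 3165 CPM at 0 µM. Lum and Fap were barely detected, with means of 0.996 and 0.495 CPM there. Of the 9 fibroblast markers tested, 8 had fold changes below 0 at 2 µM against 0 µM (median log2 fold change −0.32) and 9 at 10 µM (median −0.34). Among them Pdgfrb was called lower at 10 µM (−0.60, adjusted p = 0.000248), and the part of these markers in the changes below was not tested. The marker lists of leukocytes, endothelium and epithelium each summed to under 12 CPM in every library. In bulk RNA, fewer cells of a type and less RNA per cell cannot be told apart.

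Inhibitors were far more abundant than proteases. Per kb of exon, a scale on which genes can be compared, the 4 Timp genes summed to 514 ± 29.8 CPM per kb at 0 µM (SD, n = 3), the 23 Mmp genes to 166 ± 8.09 and the 19 Adamts genes to 55.7 ± 1.47. Timp transcripts were thus 69.8% of the summed level at 0 µM, Mmp transcripts 22.6% and Adamts transcripts 7.58%. In each family a few genes made up most of the sum.

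Among the TIMPs, Timp1 and Timp2 made up 45.8% and 45.0% of the family's summed level over all libraries, and Timp3, the TIMP that binds to the matrix, 9.11%. Timp4 was at 0 to 4 counts per library. Mmp2, a gelatinase, gave 52.7% of the Mmp sum, and Mmp14, the membrane-type MMP known as an activator of pro-MMP2, gave 20.4%. Mmp16, another membrane-type MMP, followed with 8.24%. Adamts1 gave 34.3% of the Adamts sum and Adamts5 gave 22.9%. Both cut the large proteoglycans aggrecan and versican. Within the MMP cluster, Mmp3 was the only gene with a sizeable level, and none of the other 9 exceeded 29 counts in any library.

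The balance of inhibitor to protease transcripts differed with the dose. The log2 ratio of the summed Timp level to the summed Mmp level, per kb, was 1.65, 1.64 and 1.59 in the 0 µM libraries. It was 1.99, 1.99 and 1.90 in the 2 µM libraries and 1.78 and 1.70 in the 10 µM libraries. On this scale all 2 µM libraries lay above all others, and both 10 µM libraries lay above the 0 µM libraries. Taken from the counts without division by length, the log2 ratio was 1.07 to 1.11 at 0 µM, 1.30 to 1.36 at 2 µM and 1.28 to 1.33 at 10 µM, so that both RHPS4 groups still lay above 0 µM but overlapped each other. The mean was 1.63 ± 0.032 (SD, n = 3) at 0 µM and 1.96 ± 0.055 (n = 3) at 2 µM, a difference of 0.33, and was 1.74 ± 0.058 (n = 2) at 10 µM. The Timp sum was 571 ± 11.0 CPM per kb at 2 µM, above every 0 µM library, and 498 ± 3.39 at 10 µM, within their range. The Mmp sum was 147 ± 4.39 at 2 µM and 149 ± 6.99 at 10 µM, below every 0 µM library at both doses. Without Timp1 and Mmp2, the top gene of each family, the 2 µM difference was 0.26. The ratio was read as a description, with no test.

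The Adamts sum changed little, at 52.9 ± 0.888 CPM per kb at 2 µM and 55.5 ± 1.10 at 10 µM. Its 2 µM libraries (51.9 to 53.7) still lay below every 0 µM library (54.0 to 56.6), whereas its 10 µM libraries lay within their range. The log2 ratio of Adamts to Mmp was −1.58 ± 0.086 at 0 µM, −1.47 ± 0.042 at 2 µM and −1.43 ± 0.039 at 10 µM. The 0 µM and 2 µM libraries overlapped in this ratio, and without Adamts1 and Mmp2 the 2 µM difference turned from 0.11 to −0.03.

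Gene by gene, changes were tested in 34 of the 46 genes (18 Adamts, 13 Mmp and 3 Timp), which were those with enough counts for the test among 14296 genes in all. A gene was called when edgeR's quasi-likelihood test gave a Benjamini-Hochberg adjusted p under 0.01 over all tested genes and the fold change was over 1.5. Untested were Adamts13, Timp4 and 10 Mmp genes (Mmp1a, Mmp1b, Mmp7, Mmp8, Mmp10, Mmp12, Mmp20, Mmp21, Mmp25 and Mmp27), with at most 14 counts in any library. At 2 µM against 0 µM, 1 of the 34 was called, Adamts7, which fell. The background in that comparison was 0.497% of all tested genes (0.119% higher and 0.378% lower). At 10 µM against 0 µM, 3 were called, with Adamts6 higher and Adamts9 and Mmp3 lower, where the background was 3.09% (1.95% higher and 1.14% lower). At 10 µM against 2 µM, 4 were called, with Adamts6, Mmp19 and Mmp28 higher and Mmp3 lower, where the background was 5.51% (3.92% higher and 1.59% lower). These comparisons share libraries, so their counts are not independent.

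Scaling to total counts instead of TMM moved the median log2 fold change of all genes from 0.02 to 0.23 at 10 µM against 0 µM. On that scale 4 of the 34 genes were called there, beside 914 of 14296 over all tested genes. Of the 4, 3 were higher (Adamts6, Mmp19 and Mmp28) and 1 was lower (Mmp3). Changes are therefore given relative to the median gene, as TMM does.

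The genes as a whole were not shifted far. Over the 34 tested genes the median log2 fold change was −0.16 at 2 µM and −0.02 at 10 µM against 0 µM, beside −0.01 and 0.02 over all tested genes. At 2 µM, 25 of the 34 had fold changes below 0, beside 7410 of 14296 over all tested genes. At 10 µM, 18 of the 34 did, beside 6847 of 14296. The median at 2 µM was −0.21 for Adamts, −0.15 for Mmp and 0.15 for Timp genes. Among the better measured members, with at least 100 counts on average, 8 of 10 Adamts genes and 5 of 6 Mmp genes had fold changes below 0 at 2 µM, with medians of −0.28 and −0.15. Of the 3 Timp genes at that cut, 1 was below 0 and 2 were above (median 0.15). The share below 0 among all genes with such counts was not worked out.

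**Figure D1:**
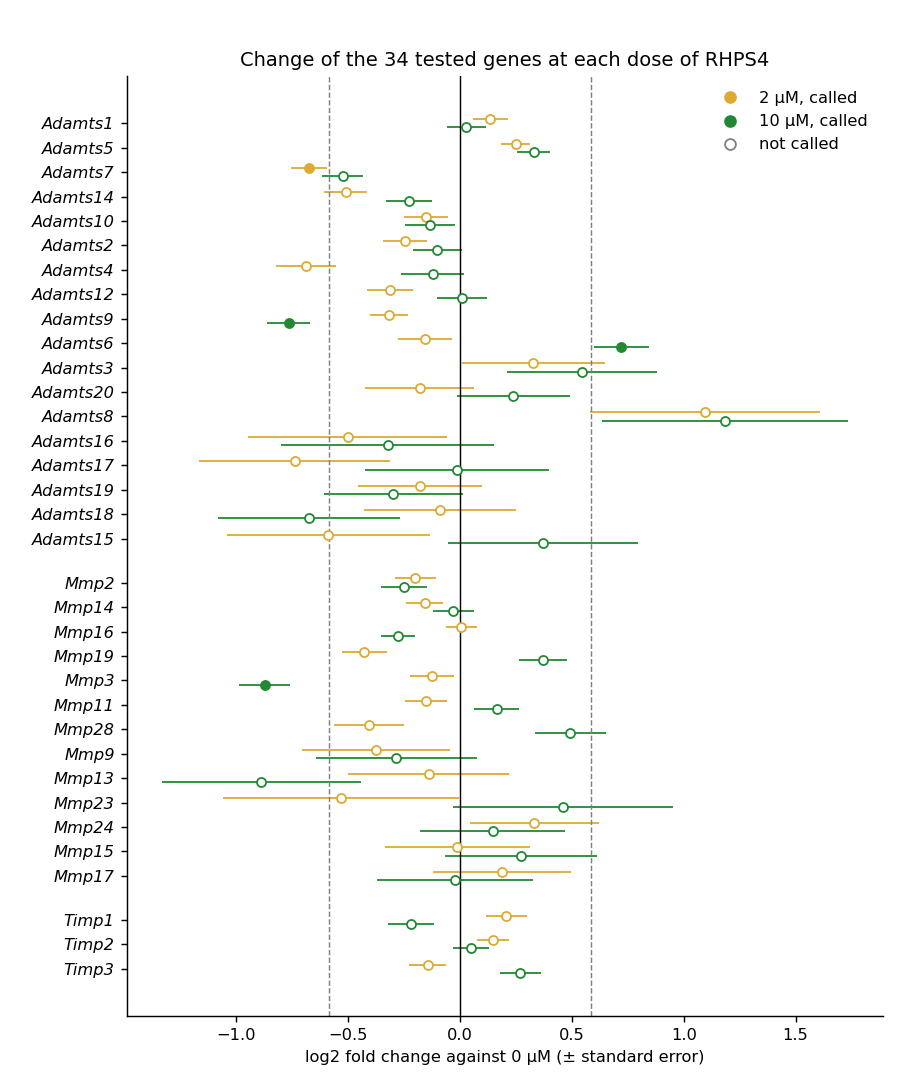
log2 fold change of the 34 tested genes at 2 µM and 10 µM against 0 µM, with standard errors, by family and in order of level. Filled points were called, and dashed lines mark a fold change of 1.5. Adamts7 is the called gene at 2 µM, and Adamts6, Adamts9 and Mmp3 are those at 10 µM. Adamts8 has the largest positive values but only 3 to 15 counts per library.

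Mmp3 (stromelysin-1, which cuts many matrix proteins and activates other proMMPs) was the member with the largest called change against 0 µM. It lies at chr9:7445822-7455975 (GRCm38) in the MMP cluster, with the AP-1 site printed above 46 bases before its start. Its level was 17.7, 16.3 and 16.1 CPM at 0 µM, 14.1, 14.7 and 16.6 CPM at 2 µM, and 8.85 and 9.28 CPM at 10 µM. Both 10 µM libraries lay below all others, while the 0 µM and 2 µM libraries overlapped. The log2 fold change was −0.87 ± 0.12 (SE) at 10 µM against 0 µM (1.83-fold lower, edgeR adjusted p = 0.000708) and −0.75 ± 0.12 against 2 µM (adjusted p = 0.00134). At 2 µM it was −0.13 ± 0.10 (adjusted p = 0.488). The call against 0 µM held with any 1 library left out, and the call against 2 µM was lost without the first 10 µM library (adjusted p = 0.0111).

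The other tested gene of the cluster was Mmp13, a collagenase at the edge of detection with 6 to 29 counts per library. Its log2 fold changes were −0.14 ± 0.36 at 2 µM and −0.89 ± 0.45 at 10 µM against 0 µM (adjusted p = 0.86 and 0.212). It did not pass the test, and a change of the size seen in Mmp3 was not detectable at this depth. The remaining 8 cluster genes could not be tested. Mmp1a and Mmp1b are close copies of each other, so that uniquely mapped fragments may undercount both.

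Some Fos family subunits of AP-1 also fell, but Fosl2, the most abundant Fos gene in the list, was not called in any comparison. Its mean was 246 CPM at 0 µM. Fosl2 had log2 fold changes of −0.18 ± 0.08 at 2 µM and 0.11 ± 0.09 at 10 µM against 0 µM (adjusted p = 0.232 and 0.435). At 10 µM against 2 µM it was 0.29 ± 0.09 (adjusted p = 0.0365). From a list of 12 AP-1 and ETS factors, none was called higher in any comparison, and 2 (Fos and Fosb) were called lower at 2 µM against 0 µM, where 0.378% of all tested genes were. At 10 µM against 0 µM 4 were called lower, namely Fos, Fosb, Fosl1 and Etv4, where 1.14% of all tested genes were. The list was drawn up with earlier results of these data known, so these counts are a description and not a test. Fosl1 (Fra-1) was at 68.0, 73.2 and 74.5 CPM at 0 µM, at 78.8, 72.1 and 75.3 CPM at 2 µM, and at 36.9 and 25.7 CPM at 10 µM. As with Mmp3, its 10 µM libraries lay below all others (log2 fold change −1.20 ± 0.13, adjusted p = 0.00017). Fos differed from this pattern, with log2 fold changes of −1.65 ± 0.20 at 2 µM and −1.18 ± 0.22 at 10 µM (adjusted p = 0.00218 and 0.00489). Jun and Junb were not called, and Jund was 0.44 at 10 µM against 0 µM (adjusted p = 0.0149) and 0.55 against 2 µM (adjusted p = 0.0028, under the fold threshold). Whether the AP-1 factors bear on Mmp3 was not tested.

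Among the other MMPs, Mmp19 and Mmp28 were lowest at 2 µM and highest at 10 µM. Mmp19 (chr10:128790910-128800824), a secreted MMP that cuts basement membrane proteins, was at 33.9, 30.2 and 33.2 CPM at 0 µM, 23.0, 22.7 and 26.3 CPM at 2 µM, and 38.0 and 45.9 CPM at 10 µM. The 3 groups did not overlap. The call was for 10 µM against 2 µM (log2 fold change 0.80 ± 0.11, 1.74-fold, adjusted p = 0.000598), while the changes against 0 µM, −0.43 ± 0.10 at 2 µM and 0.37 ± 0.11 at 10 µM, missed the threshold (adjusted p = 0.0397 and 0.0404). Without the second 10 µM library the call was lost (0.62, adjusted p = 0.0117). The antisense gene Tmem198b covers 22.3% of the exonic bases of Mmp19, and the strand setting of the counting is not given in the sources used here. Tmem198b itself was not called in any comparison (log2 fold change 0.20 ± 0.10 at 10 µM against 2 µM, adjusted p = 0.163).

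Mmp28 (epilysin, chr11:83440768-83463071) was at 4.98, 5.90 and 7.07 CPM at 0 µM, 4.67, 4.89 and 4.40 CPM at 2 µM, and 7.88 and 9.50 CPM at 10 µM. Here too the 10 µM libraries lay above all others. It was called at 10 µM against 2 µM (0.90 ± 0.17, 1.87-fold, adjusted p = 0.00355), but it rested on 48 to 178 counts per library. The call was lost when any of the 2 µM or 10 µM libraries was left out (adjusted p = 0.0105 to 0.0449). Against 0 µM it was 0.49 ± 0.16 at 10 µM (adjusted p = 0.0599).

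The most abundant MMPs were not called in any comparison. Mmp2 was at 334, 277 and 297 CPM at 0 µM, 265, 250 and 274 CPM at 2 µM, and 232 and 277 CPM at 10 µM. Its 2 µM libraries lay just below the 0 µM libraries, and its 10 µM libraries overlapped them (log2 fold changes −0.20 ± 0.09 and −0.25 ± 0.10, adjusted p = 0.234 and 0.131). Mmp14 stayed between 171 and 209 CPM in all libraries, with log2 fold changes of −0.16 ± 0.08 and −0.03 ± 0.09. Of the 5 tested membrane-type MMPs none was called, and Mmp16 had the lowest adjusted p among them at 10 µM (−0.28 ± 0.08 against 0 µM, adjusted p = 0.0355). Mmp11 (stromelysin-3) was −0.15 ± 0.09 at 2 µM and 0.16 ± 0.10 at 10 µM against 0 µM. Mmp9, the second gelatinase, had 17 to 84 counts per library and log2 fold changes of −0.37 and −0.28 with adjusted p = 0.55 and 0.639.

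In the ADAMTS family the called genes moved in different ways. Adamts7 (chr9:90163069-90208071), which cuts cartilage oligomeric matrix protein (COMP), was at 39.3, 41.9 and 41.1 CPM at 0 µM, 24.0, 25.6 and 27.1 CPM at 2 µM, and 27.2 and 29.6 CPM at 10 µM. All RHPS4 libraries lay below all 0 µM libraries, at both doses. The log2 fold change was −0.67 ± 0.08 at 2 µM (1.60-fold lower, adjusted p = 0.00212) and −0.52 ± 0.09 at 10 µM (1.44-fold lower, adjusted p = 0.00367), where it passed the p threshold but not the fold threshold. The call at 2 µM was lost without the second or the third 0 µM library or without the first or the second 2 µM library (adjusted p = 0.0121 to 0.0212), with log2 fold changes between −0.63 and −0.72 in all such fits. Adamts12, the other COMP-cleaving member, was −0.31 at 2 µM and 0.01 at 10 µM and was not called.

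Adamts9 (chr6:92772699-92943492), a proteoglycan-cutting ADAMTS, was lower with each dose. It was at 26.7, 29.9 and 28.7 CPM at 0 µM, 21.3, 23.6 and 23.7 CPM at 2 µM, and 16.7 and 16.8 CPM at 10 µM. The 3 groups did not overlap. At 10 µM it fell 1.70-fold (log2 fold change −0.77 ± 0.10, adjusted p = 0.000524), and at 2 µM it was −0.32 ± 0.08 (adjusted p = 0.0596). Between the RHPS4 doses it was −0.45 ± 0.10 (adjusted p = 0.00803, under the fold threshold). On the total-count scale the change at 10 µM was −0.55, under the fold threshold.

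Adamts6 (chr13:104287835-104496695), one of the ADAMTS members that act on fibrillin microfibrils, was the only member called higher at 10 µM against 0 µM. Its level was 7.47, 9.61 and 9.09 CPM at 0 µM, 7.58, 7.91 and 8.32 CPM at 2 µM, and 13.9 and 15.5 CPM at 10 µM. Both 10 µM libraries lay above all others, and the 0 µM and 2 µM libraries overlapped. The log2 fold change was 0.72 ± 0.12 against 0 µM (1.65-fold, adjusted p = 0.00369) and 0.88 ± 0.13 against 2 µM (1.84-fold, adjusted p = 0.000907). The call against 0 µM was lost in 4 of the 8 fits with 1 library left out, those without the second or the third 0 µM library or without either 10 µM library (adjusted p = 0.0123 to 0.0502). The call against 2 µM was lost without the second 10 µM library (adjusted p = 0.0134). Adamts10, its closest relative, was not called (−0.15 and −0.13).

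The leading proteoglycan-cutting ADAMTS genes were not called. Adamts1 was between 88.3 and 108 CPM in all libraries, with log2 fold changes of 0.14 ± 0.08 at 2 µM and 0.03 ± 0.09 at 10 µM. Adamts5 was at 118, 118 and 120 CPM at 0 µM, 139, 136 and 148 CPM at 2 µM, and 145 and 153 CPM at 10 µM. All its RHPS4 libraries lay above the 0 µM libraries, the opposite of Adamts7, yet the changes of 0.25 ± 0.07 and 0.33 ± 0.07 had adjusted p = 0.0564 and 0.0126 and were small. Adamts4 was at 11.0, 10.5 and 10.0 CPM at 0 µM, 5.02, 7.17 and 7.07 CPM at 2 µM, and 9.71 and 9.50 CPM at 10 µM, so that it was low at 2 µM alone. Its log2 fold change at 2 µM was −0.69 ± 0.13 with adjusted p = 0.0216, and DESeq2 called it with adjusted p = 0.00748. Of the 3 procollagen N-proteinases, which remove the amino propeptide of fibrillar procollagens, none was called, and Adamts14 was −0.51 ± 0.09 at 2 µM (adjusted p = 0.0177) and −0.23 ± 0.10 at 10 µM.

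The other 8 tested Adamts genes (Adamts3, Adamts8, Adamts15, Adamts16, Adamts17, Adamts18, Adamts19 and Adamts20) had 2 to 40 counts per library, and none was called. Adamts8, which also cuts proteoglycans, had the largest log2 fold changes of the 34 genes, 1.09 at 2 µM and 1.18 at 10 µM against 0 µM (adjusted p = 0.248 and 0.178), on 3 to 15 counts per library. The corresponding low MMPs, Mmp15, Mmp17, Mmp23 and Mmp24, had 1 to 19 counts per library, and their log2 fold changes lay between −0.53 and 0.46. At such counts neither a change nor its absence can be read.

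None of the TIMPs was called, with 4 genes and 3 of them tested. Timp1 was at 243, 194 and 200 CPM at 0 µM, 255, 238 and 242 CPM at 2 µM, and 172 and 194 CPM at 10 µM. The first 0 µM library overlapped the 2 µM group, and the 10 µM libraries were the lowest (log2 fold change 0.21 ± 0.09 and −0.22 ± 0.10 against 0 µM, adjusted p = 0.22 and 0.186). On the total-count scale the 10 µM value was 0.002. Timp3 was at 396, 368 and 389 CPM at 0 µM, 325, 342 and 376 CPM at 2 µM, and 427 and 500 CPM at 10 µM. Its 10 µM libraries were the highest (0.41 ± 0.09 against 2 µM, 1.33-fold, adjusted p = 0.00836, under the fold threshold), and it was 0.27 ± 0.09 against 0 µM (adjusted p = 0.0735). For Timp1 the value at 10 µM against 2 µM was −0.43 ± 0.10 (adjusted p = 0.0133), which missed both thresholds. Timp1 and Timp3 thus stood in opposite order across the 2 RHPS4 doses, though neither was called. Timp2, between 861 and 1000 CPM, was 0.15 ± 0.07 at 2 µM and 0.05 ± 0.08 at 10 µM. The antisense gene Syn3 covers 21.3% of the exonic bases of Timp3, but it had 16 to 69 counts per library against 3691 to 9803 for Timp3.

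Genes that act on these enzymes or beside them were read from lists of known genes. The lists were drawn up with earlier results of these data known, so their counts are a description. Of 15 genes of inhibition, activation and clearance, 14 were tested and 0 were called against 0 µM at either dose. Lrp1, the receptor that takes up MMPs, ADAMTS enzymes and TIMPs from the medium, was at 1297, 1478 and 1582 CPM at 0 µM, 860, 980 and 1101 CPM at 2 µM, and 1075 and 1118 CPM at 10 µM. Its RHPS4 libraries all lay below the 0 µM libraries, with log2 fold changes of −0.57 ± 0.10 and −0.41 ± 0.12 (adjusted p = 0.0159 and 0.039). Reck, a membrane-anchored MMP inhibitor, was −0.65 ± 0.24 at 2 µM (adjusted p = 0.149) and 0.20 ± 0.24 at 10 µM. Furin, which activates membrane-type MMPs and ADAMTS proenzymes, was −0.41 ± 0.12 at 10 µM (adjusted p = 0.039). At 10 µM against 2 µM, Sdc4 (syndecan-4, −0.60 ± 0.09, adjusted p = 0.00115) and Pcolce2 (an enhancer of procollagen C-proteinase, −0.72 ± 0.14, adjusted p = 0.00476) were called lower.

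Of 11 related metalloproteinases, 10 were tested. Adam19 was called lower at 10 µM against 0 µM (−0.79 ± 0.11, adjusted p = 0.000852) and Adam12 at 10 µM against 2 µM (−0.73 ± 0.12, adjusted p = 0.00156). Among 6 genes of plasmin activation, a system that activates several proMMPs, Plaur (the urokinase receptor) was called higher at 2 µM (0.60 ± 0.08, adjusted p = 0.00347). None of 4 tested ADAMTS-like genes and none of 13 matrix substrates, among them Acan, Vcan, Comp and the fibrillar collagens, was called in any comparison. Acan passed the p threshold but not the fold threshold at 10 µM. It was −0.57 ± 0.10 against 0 µM (1.49-fold lower, adjusted p = 0.00413) and −0.55 ± 0.10 against 2 µM (adjusted p = 0.00333). The median log2 fold change of the substrates was −0.10 at 2 µM and −0.26 at 10 µM against 0 µM.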

How the data were processed

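The authors trimmed 75 bp paired reads with Trim Galore and cutadapt, aligned them to mm10 with STAR 2.5.2a (the version is from the submitters' processing notes) and used featureCounts to count the fragments that mapped uniquely to each gene. The deposited values are raw counts per gene and library. The annotation and the strand setting are not given in the sources used here. From these counts, edgeR 4.0.16 in R 4.3.3 (TMM, filterByExpr, glmQLFit and glmQLFTest, all 8 libraries in 1 fit with dose as the only factor) gave log2 fold changes, with a standard error equal to the fold change divided by the square root of F. The genes named singly were all TIMPs and the top 3 by level in each protease family. Also named were all members with an adjusted p under 0.05 in any comparison, the called genes of the wider lists, and Reck, Furin and Lrp1. Relatives and other listed genes, such as fibroblast markers, were named for context after their values were seen. Exon lengths and positions came from GENCODE vM21 (GRCm38). Libraries of a group differed by more than sampling noise (chi-square per degree of freedom 3.23 to 20.2), so none was read as a repeat sequencing of another. Each was treated as its own replicate, although this check cannot show that they came from separate cultures. Same-numbered libraries did not deviate together throughout (r of −0.145 to 0.199), so numbers were not taken as pairs. The gene lists and members were chosen with earlier results of these data known. Scripts were tested on simulated data. Protein sequences were not analysed here.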

Additional observations from a re-analysis of the deposited data

How the results depend on the processing

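Counts of called genes were 1, 3 and 4 (2 against 0, 10 against 0 and 10 against 2 µM). An adjusted p under 0.05 with no minimum fold gave 4, 7 and 10 of 34, beside 595, 1991 and 3346 of 14296 over all tested genes. DESeq2 gave 2 at 2 µM against 0 µM, adding Adamts4. With 1 library left out the counts ran from 0 to 1, from 2 to 3 and from 1 to 4, and a 10 µM library then stood alone and was assumed to vary like the other groups. The replicate block gave 1, 3 and 4 and ended none of these calls. Between the 0 µM and 2 µM groups, each library correlated best with its own number, a hint from the data and not the design. This did not extend to 10 µM, where the second 0 µM library had r = 0.105 with the first library and −0.105 with the second. Over all genes, DESeq2 called 109 against 71 at 2 µM, and total counts 914 against 442 at 10 µM. Total-count scaling turned Timp1 at 10 µM against 0 µM from −0.22 to 0.002 and Timp2 at 10 µM against 2 µM from −0.10 to 0.0355, and Timp2 at 10 µM against 0 µM ran from −0.0733 (without the first 10 µM library) to 0.11. With the longest transcript as length, the log2 ratio at 0 µM was 1.39 for Timp to Mmp and −1.71 for Adamts to Mmp, and without the top gene of each family 1.84 and −1.02. Without those genes, the change in Timp to Mmp at 2 µM was 0.26, and that in Adamts to Mmp was −0.03 at 2 µM and 0.0362 at 10 µM. The causes were not tested. Depth limits the 12 untested genes and those near 100 counts, such as Mmp28 and Adamts6.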
